A study of Mus musculus with 14 samples.

Results

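The comparison described here is the effect of blocking the microRNA miR-31 in repeatedly activated Th1 cells, read 72 h after treatment. It was read from 6 of the 14 arrays of the series, 3 with the inhibitor Antagomir-31 and 3 with the scrambled control Antagomir-SCR, and it covered every gene that the arrays could measure. The arrays were chosen by their labelled treatment and time, and no measured value was used to choose them. The study asked which transcripts of long-term Th1 cells respond when miR-31 is blocked. Naive CD4+CD62Lhi T cells came from OTII mice aged 6 to 10 weeks, whose T cells carry a transgenic receptor for an ovalbumin peptide, and were driven to Th1 with IL-12 and anti-IL-4 on irradiated antigen-presenting cells. Both groups were Th1 cells stimulated several times (Th1 rep), and both received an antagomir at 1 µM in medium for 1.5 h before they were activated again through CD3 and CD28. An antagomir is a chemically modified RNA, taken up by the cell, that pairs with a microRNA and blocks it. The remaining 8 arrays held the same treatments at 36 h and 48 h, with 2 arrays per treatment and time.

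A microRNA guides the silencing complex to messenger RNAs by pairing, mainly through its seed, and its targets are translated less and degraded faster. Blocking a microRNA relieves its direct targets, and other genes can follow through them. Th1 cells are helper T cells that make interferon gamma, and after repeated activation they can also carry the granule proteases known from cytotoxic cells. The blocked strand and its partner strand are shown because the seed of the first is what the treatment masks. The sequences were taken from RefSeq on the mouse build GRCm38.p6, with bases 2 to 8, the seed, in capitals. Both arms lie on the minus strand, at chr4:88910614-88910635 for miR-31-5p and chr4:88910577-88910599 for miR-31-3p.
mmu-miR-31-5p: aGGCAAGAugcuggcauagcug
mmu-miR-31-3p: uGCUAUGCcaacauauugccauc

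The arrays (Affymetrix Mouse 430_2) give intensities on a linear scale, already background-corrected and normalized by the authors, and miR-31 itself was not read on them. The 6 arrays were close to each other, with correlations of log2 values between 0.9968 and 0.9983. Upper quartiles of intensity lay between 129.1 and 130 after Antagomir-31 and between 131.4 and 133.2 after the control, so the treatments separated slightly on this measure, and its part in the gene results was not tested beyond the other scalings given below. A gene was read as the highest of its probe sets on each array, and the 10916 genes in the brightest 60% were tested with limma across all 14 arrays. Nothing in the labels ties replicates to separate cultures, and the p-values therefore describe the spread between these arrays, which may be technical.

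At 72 h, 50 genes rose with Antagomir-31 and 65 fell (limma, Benjamini-Hochberg adjusted p below 0.05), which is 1.05% of the 10916 genes tested. By direction, 0.458% of the genes rose and 0.595% fell. Counts of passing list members below are to be read beside these shares. The lists were chosen with earlier results of these data known, so such counts describe the lists and test no group. All 115 had array values that did not overlap between the treatments, as did 24.1% of all genes tested. The split between directions moved with the scaling. Centring each array on its median gave 40 higher and 109 lower genes, and quantile normalization gave 67 higher and 52 lower. The count also rested on single arrays. Among the Antagomir-31 arrays, leaving out replicate 2 gave 11 genes, replicate 3 gave 13 and replicate 4 gave 98. Among the Antagomir-SCR arrays, the counts were 40, 11 and 65 when replicate 2, 3 or 4 was left out. Antagomir-31 replicates 2 and 3 and Antagomir-SCR replicate 3 are called the 3 sensitive arrays below. Under another choice of probe sets, 27 of the 115 values, 21 of them of higher genes, shrank by more than 1.5 times or changed sign, and these genes are taken up with the probe sets below.

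The differences were small. Among the 115 genes, the size of the log2 fold change (Antagomir-31 over Antagomir-SCR) ran from 0.19 to 1.38, with a median of 0.30, against a median size of 0.061 over all genes tested. A fold of at least 1.2 was reached by 77 of them, a fold of at least 1.5 by 6, and a fold of at least 2 by 1, the granzyme gene Gzmg. The 6 genes past 1.5-fold were Gzmg, Gzme and Gzmd among those that rose and Lif, Evl and Il24 among those that fell. One more gene was past 1.5-fold without passing, Tnfrsf11b, which encodes the decoy receptor osteoprotegerin and was picked out after its values were seen. Its intensities were 183, 175 and 182 with Antagomir-31 and 97.7, 86.0 and 134 with Antagomir-SCR. The treatments did not overlap, yet the control arrays were spread, and the difference of 0.79 had an adjusted p of 0.055 (limma).

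The median intensity at 72 h was 401 for the 50 higher genes (quartiles 217 to 969), 212 for the 65 lower genes (120 to 444) and 213 for all genes tested (75.4 to 546). When genes were divided by intensity into 4 bins of equal size, 0.33% of the dimmest bin passed, and 1.36%, 1.39% and 1.14% of the next 3. The dimmest bin, below an intensity of 75.3, held 3 higher and 6 lower genes, and the second held 10 higher and 27 lower. The brightest bin, above 546, held 19 higher and 12 lower genes. Precision moved with intensity as well: the median standard error of the log2 fold change was 0.0756 in the dimmest bin and 0.0467 in the brightest. The median size of a passing change was 0.347 and 0.365 in the dimmer 2 bins and 0.289 and 0.25 in the brighter 2. The plot of fold change against intensity shows these features gene by gene.

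**Figure D1:**
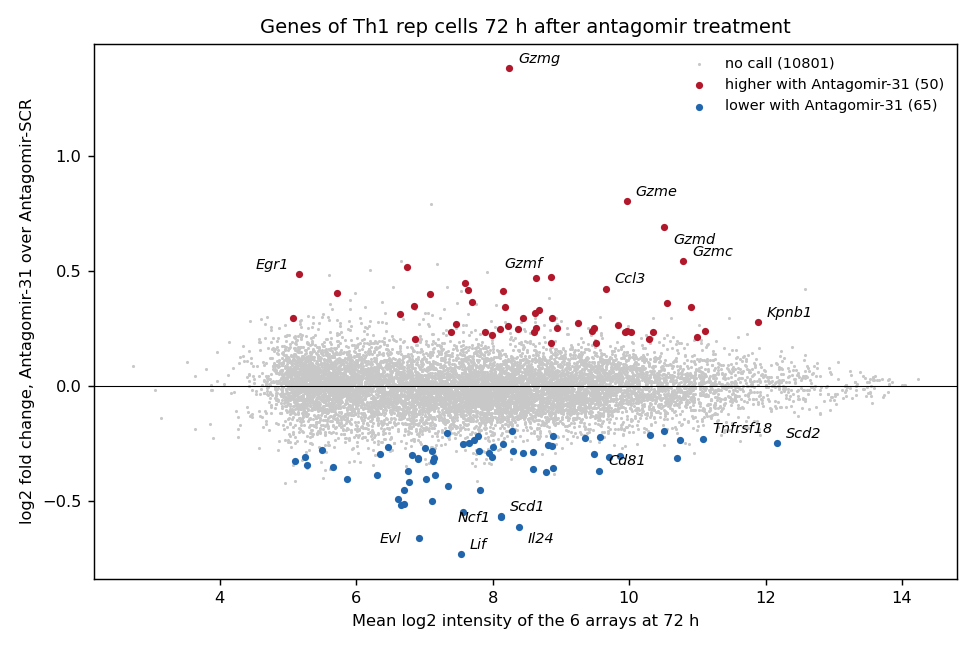
Log2 fold change (Antagomir-31 over Antagomir-SCR, vertical axis) against the mean log2 intensity of the 6 arrays at 72 h (horizontal axis), with 1 point per gene tested. The 50 genes that rose are red and the 65 that fell are blue; Gzmg stands apart at 1.38, and most other coloured points lie within 0.5 of 0.

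The largest change was in the granzymes, serine proteases of cytotoxic granules that enter a target cell through pores made by perforin. Of 24 granzyme and cytotoxic granule genes tested, 5 rose and 0 fell (20.8%, against 1.05% of all genes), and the 5 were Gzmc, Gzmd, Gzme, Gzmf and Gzmg, a block of closely related genes on chromosome 14. The median of the list was 0.04 on the log2 scale, against -0.009 for all genes. Gzmg read 517, 529 and 429 with Antagomir-31 and 165, 168 and 239.5 with Antagomir-SCR. The lowest Antagomir-31 array was above the highest control array, and the difference was 1.38 ± 0.12 (log2 ± SE, limma adjusted p 3.7e-04). Gzme read 1333, 1378 and 1252 with Antagomir-31 and 818, 722 and 734 with Antagomir-SCR, a difference of 0.80 ± 0.10 (adjusted p 0.0036, limma). Gzmd read 1908, 1855 and 1797 with Antagomir-31 and 1177, 1166 and 1105 with Antagomir-SCR, a difference of 0.69 ± 0.079 (adjusted p 0.0023, limma). The same separation of the arrays was seen for each of the 3 genes. In a bulk sample, more cells that express a gene and more RNA per cell cannot be told apart.

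Gzmc, the brightest of the 5, read 2203, 2112 and 2086 with Antagomir-31 and 1428, 1426 and 1547 with Antagomir-SCR, which is 0.54 on the log2 scale (adjusted p 0.0036, limma). Gzmf, which lies beside it, read 580.4, 551 and 509 with Antagomir-31 and 409, 389.6 and 381 with Antagomir-SCR, a difference of 0.47 (adjusted p 0.014, limma). The size of the difference did not follow the level: the dimmest 2 of the 5, Gzmg and Gzmf, had the largest and the smallest difference. The neighbouring Gzmb and the distant Gzma, the classical granzymes, were chosen for comparison after their values were seen. Gzmb, the brightest granzyme here, read 14567, 14507 and 14467 with Antagomir-31 and 14239.5, 14531 and 13895 with Antagomir-SCR, so the treatments overlapped and the difference was 0.03 (adjusted p 0.72, limma). Gzma read 7137, 7712 and 6348 with Antagomir-31 and 4661, 4726 and 6636 with Antagomir-SCR. One control array reached the Antagomir-31 range, and the difference of 0.42 did not pass (adjusted p 0.087, limma). In the order of the RefSeq table the row runs Gzme, Gzmd, Gzmg, Gzmn, Gzmf, Gzmc and Gzmb. Gzmn was on the array but under the intensity floor, so it was not tested. Along the row, Gzme, Gzmd and Gzmg (0.80, 0.69 and 1.38) each differed by more than Gzmf and Gzmc (0.47 and 0.54). The 5 passing genes were still called in 16 of 16 (Gzmg), 16 of 16 (Gzmd), 16 of 16 (Gzmc), 15 of 15 (Gzme) and 12 of 16 (Gzmf) alternative analyses that tested them. The alternatives were 10 other filters, summaries, scalings or fits and 6 analyses that each left out 1 array.

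**Figure D2:**
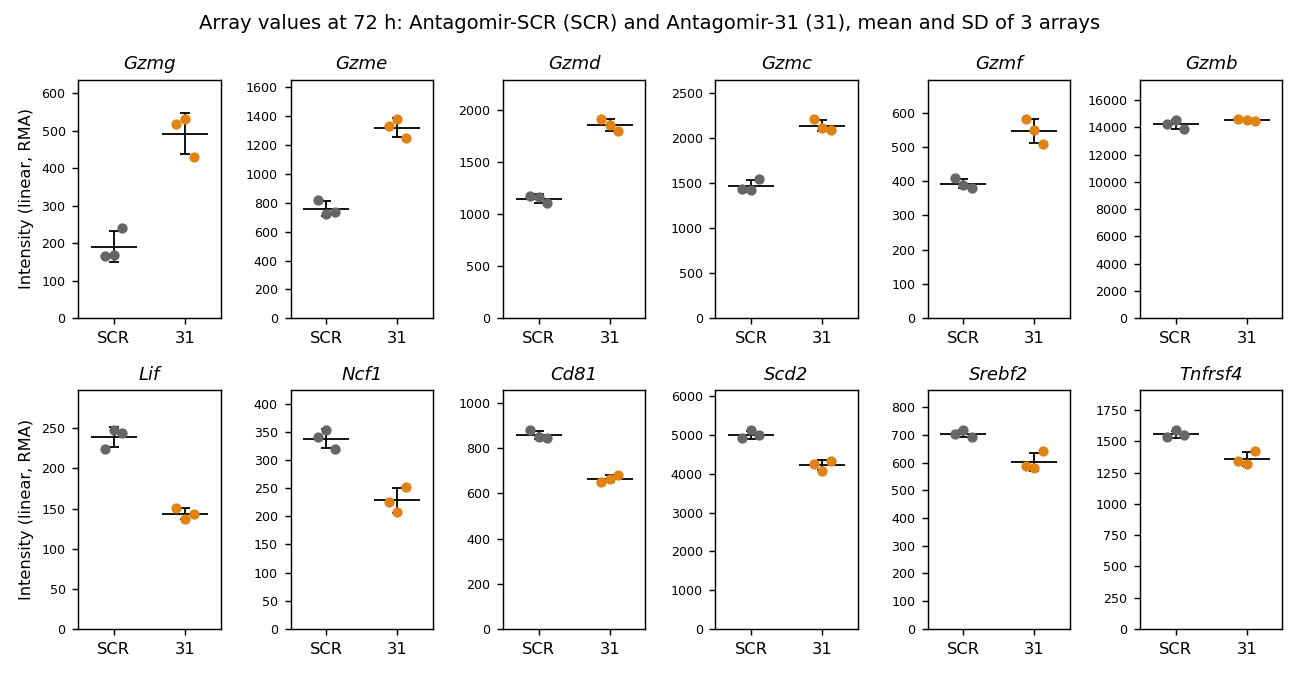
Linear intensity (vertical axis, starting at 0) of 12 genes in each array at 72 h, with Antagomir-SCR (SCR, grey) beside Antagomir-31 (31, orange); bars give the mean and SD of 3 arrays. Of the 6 granzymes in the upper row, 5 are higher with Antagomir-31 without overlap and Gzmb overlaps, and the 6 genes of the lower row are lower without overlap.

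The 5 granzymes that rose share sequence in front of their start sites, and the 100 bases before each start are shown because these 5 moved together while Gzmb did not pass. The sequences are RefSeq's on GRCm38.p6, minus strand, read 5′ to 3′, and the capitals mark a 20-base run that is identical in all 5. They lie at chr14:56234658-56234757 (Gzmc), chr14:56132594-56132693 (Gzmd), chr14:56120626-56120725 (Gzme), chr14:56211408-56211507 (Gzmf), chr14:56159580-56159679 (Gzmg) and chr14:56262335-56262434 (Gzmb).
Gzmg: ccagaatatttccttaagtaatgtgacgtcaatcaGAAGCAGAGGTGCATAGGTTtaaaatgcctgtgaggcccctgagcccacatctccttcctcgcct
Gzme: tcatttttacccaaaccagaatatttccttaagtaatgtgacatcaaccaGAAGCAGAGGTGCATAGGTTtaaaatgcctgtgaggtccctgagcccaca
Gzmd: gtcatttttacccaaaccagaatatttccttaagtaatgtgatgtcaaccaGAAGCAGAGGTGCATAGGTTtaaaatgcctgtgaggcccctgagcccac
Gzmc: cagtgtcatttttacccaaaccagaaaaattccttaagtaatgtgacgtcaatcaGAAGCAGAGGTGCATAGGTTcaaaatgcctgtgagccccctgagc
Gzmf: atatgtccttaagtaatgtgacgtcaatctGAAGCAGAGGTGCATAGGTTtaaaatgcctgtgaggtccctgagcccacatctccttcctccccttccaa
Gzmb: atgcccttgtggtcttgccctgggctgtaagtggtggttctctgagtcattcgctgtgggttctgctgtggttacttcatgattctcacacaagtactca

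The run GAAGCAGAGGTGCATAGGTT, searched on both strands, was found in 5 of 32851 promoters of the same length (0.0152%), those of these 5 genes. It begins 45 bases before the start of Gzmc, 49 before Gzmd, 50 before Gzme, 65 before Gzmg and 70 before Gzmf. Over 250 upstream bases, identity within the 5 ran from 77.2% to 95.2%, the highest being Gzmd with Gzme. Identity between these 5 and Gzmb, Gzmn, Gzma, Gzmk and Gzmm ran from 49.2% to 55.6%. The shared letters describe relatedness of the genes and are no evidence of a binding site. The same relatedness limits the reading of single genes, since a probe for one may also bind the transcript of another. Gzme was read by 1 probe set of a kind that the platform marks as able to cross-hybridize, and so was the brighter probe set of Gzmd. The other probe set of Gzmd carries no such mark and gave 0.71, against 0.69 for the first.

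Secreted factors moved in both directions. Of 28 secreted cytokine genes tested, 2 fell and none rose (7.14%, against 1.05% of all genes), and the list median was -0.04. Lif, which encodes a cytokine of the interleukin-6 family, read 151, 137 and 143 with Antagomir-31 and 225, 248 and 244 with Antagomir-SCR. Every Antagomir-31 array was lower than every control array, and the difference was -0.73 ± 0.061 (adjusted p 2.8e-04, limma). Il24, a cytokine of the interleukin-10 family, read 245, 272 and 297 with Antagomir-31 and 362, 440.4 and 444 with Antagomir-SCR, without overlap and with a difference of -0.61 (adjusted p 0.022, limma). Lif passed in all 16 alternatives, and Il24 was lost without any one of the 3 sensitive arrays or Antagomir-SCR replicate 4. Il24 was also lost with no intensity filter and when the 72 h arrays were fitted alone. Il21, a helper cytokine for B cells, missed the threshold at -0.29 (adjusted p 0.054, limma). Among 9 chemokines, 1 rose and none fell (11.1%, against 1.05% of all genes). Ccl3, which attracts macrophages and T cells, rose by 0.42 (adjusted p 0.0033, limma) from arrays of 901, 912 and 993 with Antagomir-31 and 658, 692 and 743 with Antagomir-SCR. The other 8 did not pass, including the far brighter Ccl5, another T cell chemokine, at -0.09.

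Other extracellular or hormone-like products passed outside the cytokine lists. Inhba, the subunit of activin A, rose from 554 to 669 (0.27 on the log2 scale). Afp, best known as the fetal serum protein alpha-fetoprotein, rose by 0.42. Insl5, a peptide gene of the relaxin family, read 144, 153 and 175 with Antagomir-31 and 251, 235 and 207 with Antagomir-SCR. All its Antagomir-31 arrays were lower, and the difference was -0.55. The metalloproteinase inhibitor gene Timp1 (-0.46), the matrix proteoglycan gene Lum (-0.37) and the laminin chain gene Lama5 (-0.27) fell as well.

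On the cell surface, 3 costimulatory receptors of 16 tested fell and none rose (18.8%, against 1.05% of all genes). The list median was -0.10 against -0.009 for all genes. A negative difference was seen in 13 members, while 46.0% of all genes had a positive one. Without overlap of the arrays, 7 members were lower, a pattern met by 14.7% of all genes. The 3 that passed were Tnfrsf4 (OX40), Tnfrsf18 (GITR) and Crtam. OX40 and GITR are receptors of the tumour necrosis factor family that sustain activated T cells, and their genes are neighbours. Tnfrsf4 read 1343, 1320.0 and 1424 with Antagomir-31 and 1538, 1590.2 and 1549 with Antagomir-SCR, a difference of -0.20 (adjusted p 0.043, limma). Tnfrsf18 read 1902, 2046 and 2069 with Antagomir-31 and 2398, 2315 and 2338 with Antagomir-SCR, a difference of -0.23 (adjusted p 0.038, limma). Both genes are bright, and the gap between the treatments was narrow beside their level. Crtam, an adhesion receptor of activated cytotoxic cells, was dimmer and read 121, 122 and 132 with Antagomir-31 and 174, 163 and 153 with Antagomir-SCR, with -0.39 (adjusted p 0.015, limma). Tnfrsf8 (CD30) was at -0.35 and missed the threshold (adjusted p 0.067, limma). No costimulatory receptor passed without any one of the 3 sensitive arrays or with no intensity filter. None passed either with the replicate number as a block, a fit that treats same-numbered arrays as pairs. Crtam alone passed when Antagomir-SCR replicate 2 or 4 was left out. When the 72 h arrays were fitted alone, none of the 3 passed and Tnfrsf8 did.

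Surface molecules outside that list fell as well. Cd80, the ligand shared by CD28 and CTLA-4, fell (-0.44), and so did Cd70, the ligand of CD27 (-0.37). The 3 Cd70 arrays with Antagomir-31 averaged 387 ± 26.9 (SD, n = 3) and the controls 501 ± 19.1. Cd81, a tetraspanin that organizes receptors in the membrane, read 649, 663 and 683 with Antagomir-31 and 879.7, 851 and 846 with Antagomir-SCR, which is -0.37 (adjusted p 0.0033, limma), and it passed in all 16 alternatives. Of 16 co-inhibitory receptors and ectoenzymes, 1 rose and 1 fell (12.5%, against 1.05% of all genes). Havcr2 (Tim-3) read 1129, 1159 and 1099 with Antagomir-31 and 944, 949.8 and 988 with Antagomir-SCR and rose by 0.23 (adjusted p 0.027, limma). Ctla4 read 306, 326 and 316 with Antagomir-31 and 387, 397 and 375 with Antagomir-SCR and fell by 0.29 (adjusted p 0.041, limma). Neither overlapped, and Ctla4 was lost whichever array was left out. Havcr2 passed without Antagomir-31 replicate 4 or Antagomir-SCR replicate 4 and was lost without any other array. Both genes were lost with no intensity filter and when the 72 h arrays were fitted alone. With the replicate number as a block, Ctla4 alone passed. Further receptor genes that fell were Axl, a receptor kinase for Gas6, at -0.45, Selp (P-selectin) at -0.41 and Il10ra, the ligand-binding chain of the interleukin-10 receptor, at -0.35. Il10ra was the single one of 25 cytokine receptors to pass (4.0%, against 1.05% of all genes) and was lost when any one of the 6 arrays was left out. It was also lost with no intensity filter, when the 72 h arrays were fitted alone and with the replicate number as a block. Selp and Il10ra were dim, with control means of 67.3 and 56.9. Cd36, a scavenger receptor for lipids, rose by 0.25.

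Of 21 SOCS, Pim and STAT genes, which act below cytokine receptors, 2 fell and none rose (9.52%, against 1.05% of all genes). The list median was -0.06. Socs1, an inhibitor of JAK kinases, read 329, 321 and 371 with Antagomir-31 and 442, 445 and 422 with Antagomir-SCR, a difference of -0.36 (adjusted p 0.034, limma). Pim2, a kinase that supports survival, fell by 0.26. With single arrays left out, Socs1 passed without Antagomir-31 replicate 4, and neither gene passed without any other array. Both were lost with no intensity filter, when the 72 h arrays were fitted alone and with the replicate number as a block. Pim2 was lost under quantile normalization too. In the NF-kB list of 21, 9.52% passed, against 1.05% of all genes. Nfkb2, the precursor of p52, fell by 0.28 and Malt1, the protease that links the T cell receptor to NF-kB, rose by 0.34. With the mean of its probe sets Malt1 was at 0.13 (adjusted p 0.32, limma). Relb, the partner of p52, was at -0.27 (adjusted p 0.055, limma) and Tnip2 at -0.22 (adjusted p 0.062, limma). Here Nfkb2 passed without Antagomir-31 replicate 4, and neither Nfkb2 nor Malt1 passed without any other array. Those 2 genes were likewise lost with no intensity filter, when the 72 h arrays were fitted alone and with the replicate number as a block. Nfkb2 was lost under quantile normalization too.

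Of 8 RGS genes, whose products shorten G-protein signals, Rgs16 and Rgs2 rose and none fell. Rgs16, which switches off G-protein signals from chemokine receptors, read 474, 483 and 442 with Antagomir-31 and 346, 333 and 331 with Antagomir-SCR, a difference of 0.47 (adjusted p 5.1e-04, limma), and it passed in all 16 alternatives. Rgs2 rose by 0.25 and was lost when any one of the 6 arrays was left out. Of 30 immediate early genes, 1 passed (3.33%, against 1.05% of all genes). Egr1, a transcription factor induced within minutes of receptor signalling, read 41.7, 43.7 and 41.7 with Antagomir-31 and 28.2, 29.3 and 33.6 with Antagomir-SCR. These values are close to the floor of 27.9, and the difference was 0.48 (adjusted p 0.011, limma); it was lost without Antagomir-31 replicate 3 or Antagomir-SCR replicate 3. Ier3 at -0.29 and Junb at -0.26 lay the other way and did not pass. Gna15, a G-protein subunit of blood cells, fell (-0.30), as did Arrb2 (beta-arrestin 2, -0.20) and the small GTPase gene Rras2 (-0.24). Ptpn12, a phosphatase that acts on adhesion signalling, rose by 0.32, and the kinase gene Sbk1 by 0.52.

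Of 36 transcription factors of effector and memory cells, 1 rose and 1 fell (5.56%, against 1.05% of all genes). Prdm1 (Blimp-1), a transcriptional repressor that promotes terminal effector differentiation, read 386, 386 and 384 with Antagomir-31 and 329, 309 and 304 with Antagomir-SCR, a difference of 0.30 (adjusted p 0.018, limma). Bach2, a repressor that holds back effector genes, read 104, 109.6 and 108 with Antagomir-31 and 134, 136 and 129.9 with Antagomir-SCR, a difference of -0.32 (adjusted p 0.023, limma). Neither overlapped, and neither passed without any one of the 3 sensitive arrays, nor did Bach2 without Antagomir-SCR replicate 2. Both were lost with no intensity filter and with the replicate number as a block. When the 72 h arrays were fitted alone, Bach2 passed and Prdm1 did not. Id2 at 0.21 and Irf4 at -0.25 did not pass. Outside the list, Crem, a modulator of cyclic AMP responses, fell by 0.31. The transcription factor genes Nfix (-0.35), Plagl2 (-0.29) and Klf9 (-0.25) fell too. Atf5, of the integrated stress response, rose by 0.20. Among chromatin genes, Ehmt2 (the H3K9 methyltransferase G9a) fell by 0.36, and Kdm5b, a histone demethylase, rose by 0.24.

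Genes of lipid synthesis were among those that fell. Of 28 sterol synthesis and SREBP genes, 3 fell and none rose (10.7%, against 1.05% of all genes). A negative difference was found in 25 of them, while 46.0% of all genes had a positive one. Without overlap, 15 were lower and 0 were higher. The share of all genes that were lower without overlap was 14.7%. The list median was -0.09, and it was -0.10 under median centring and -0.08 under quantile normalization. Srebf2, the transcription factor that switches on cholesterol synthesis, read 586, 581 and 640.1 with Antagomir-31 and 704, 717 and 693 with Antagomir-SCR, a difference of -0.23 (adjusted p 0.034, limma). Insig1, which holds SREBP in the endoplasmic reticulum and is itself an SREBP target, read 235, 229 and 221 with Antagomir-31 and 272, 296 and 280.4 with Antagomir-SCR, a difference of -0.31 (adjusted p 0.018, limma). Sqle (squalene epoxidase), a rate-limiting step of the pathway, read 688, 695 and 727 with Antagomir-31 and 789.9, 841 and 835 with Antagomir-SCR, a difference of -0.22 (adjusted p 0.034, limma). In each of the 3 genes the arrays of the treatments were apart by a small step. Sc5d, a late enzyme of the same pathway, was at -0.20 (adjusted p 0.059, limma). No sterol gene passed without any one of the 3 sensitive arrays or with no intensity filter. The same held when the 72 h arrays were fitted alone and with the replicate number as a block. Insig1 alone passed without Antagomir-SCR replicate 4.

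Of 27 fatty acid synthesis and desaturation genes, 4 fell and none rose (14.8%, against 1.05% of all genes), with a median of -0.08. They were the desaturases Scd1, Scd2 and Fads2 and the elongase Elovl6, which modify fatty acids once these are made or taken up. Scd2 was the brightest gene that fell and read 4239.9, 4075 and 4329.6 with Antagomir-31 and 4917, 5124 and 4989 with Antagomir-SCR, a difference of -0.25 (adjusted p 0.014, limma). Scd1, the sister enzyme, read 219.7, 206 and 262 with Antagomir-31 and 330.2, 386 and 301 with Antagomir-SCR, a difference of -0.57 (adjusted p 0.034, limma). Fads2, which starts the making of polyunsaturated fatty acids, read 88.4, 79.4 and 93.7 with Antagomir-31 and 113, 142 and 119.5 with Antagomir-SCR and Elovl6 read 114, 113 and 112 with Antagomir-31 and 143, 147 and 159.8 with Antagomir-SCR. Their differences were -0.51 and -0.41, without overlap. Of the same list, 10 genes were lower and 3 higher without overlap, which is 37.0% and 11.1%, beside 14.7% and 9.44% of all genes. None of the list passed without any one of the 3 sensitive arrays, with no intensity filter or with the replicate number as a block. Elovl6 passed when the 72 h arrays were fitted alone. Lipid genes outside both lists that fell were the lipases Mgll (-0.42) and Pnpla2 (-0.21), the lysolipid transporter Mfsd2a (-0.25) and the acetylhydrolase subunit Pafah1b3 (-0.25). Acbd5, a peroxisomal acyl-CoA binding protein, rose by 0.24.

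**Figure D3:**
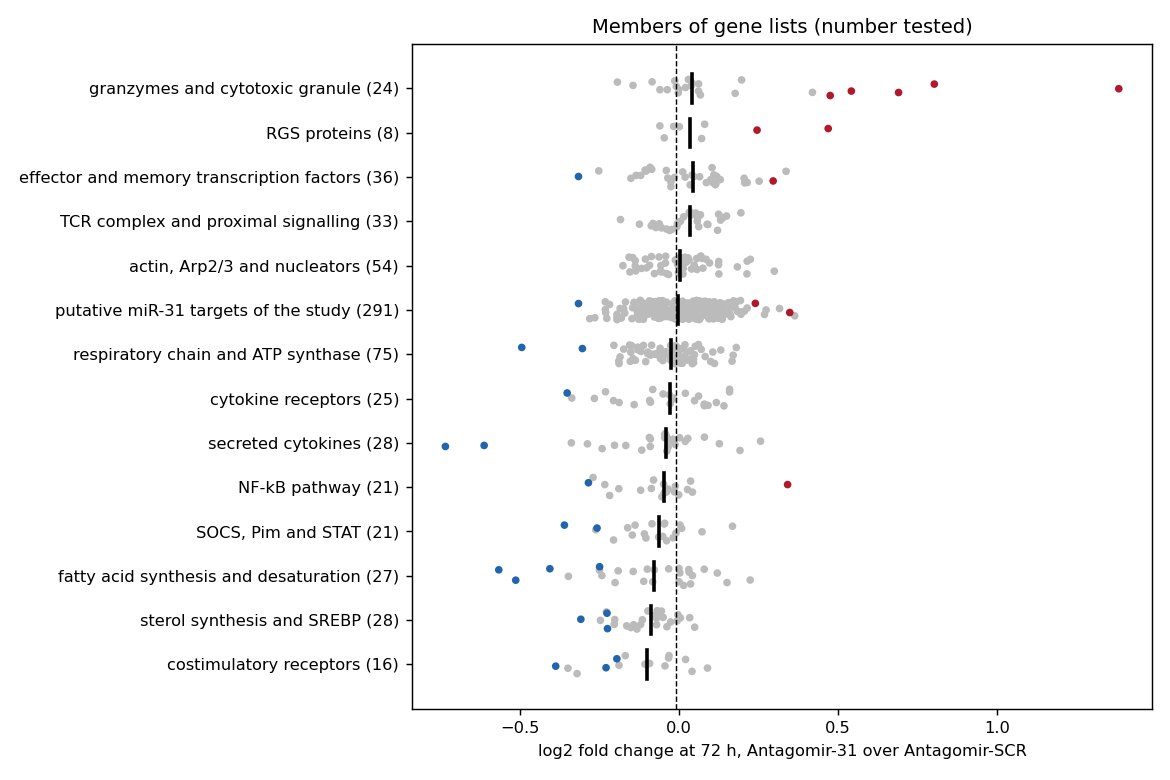
Log2 fold change at 72 h (horizontal axis) of the tested members of 14 gene lists, 1 point per gene, with the number tested in brackets; red points rose, blue points fell, grey points did not pass, black bars are list medians and the dashed line is the median of all genes. Red points stand furthest right in the granzyme list, and blue points without red ones appear in the costimulatory, sterol, fatty acid, SOCS, cytokine and respiratory chain lists.

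Oxidant and mitochondrial genes were also among the lower ones. Ncf1, the p47 subunit of the phagocyte NADPH oxidase, read 226, 207 and 252 with Antagomir-31 and 341, 353 and 319.9 with Antagomir-SCR, a difference of -0.57 ± 0.064 (adjusted p 0.0021, limma). Its treatments were apart by more than the spread within either, and it passed in all 16 alternatives. Of 75 respiratory chain genes, 2 fell and none rose (2.67%, against 1.05% of all genes): Cox6b2, an alternative subunit of cytochrome oxidase, at -0.49, and Ndufa4, at -0.30. The list median was -0.03, with 28 genes lower without overlap, which is 37.3% beside 14.7% of all genes, and 9 higher, beside 9.44% of all genes. Without Antagomir-31 replicate 3 or Antagomir-SCR replicate 4, neither passed. The same held with no intensity filter, when the 72 h arrays were fitted alone and with the replicate number as a block. Cox6b2 alone passed without Antagomir-31 replicate 2 or Antagomir-SCR replicate 2, and Ndufa4 alone without Antagomir-SCR replicate 3. Gsto1, a glutathione transferase, rose from 1321 to 1698 (0.36), and was at 0.11 without cross-hybridizing probe sets. Ndrg1, a gene of the hypoxia response, read 238, 247 and 195 with Antagomir-31 and 169, 173 and 155 with Antagomir-SCR, a rise of 0.45 that was 0.05 without cross-hybridizing probe sets (adjusted p 0.76, limma).

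Genes of shape, traffic and transport were mixed. Evl, an actin-elongation protein of the Ena/VASP family, read 99.7, 89.8 and 100.0 with Antagomir-31 and 148, 165 and 144 with Antagomir-SCR, a difference of -0.66 (adjusted p 0.012, limma). Net1, an exchange factor of the GTPase RhoA, fell (-0.52), and so did Dynlt1f, a dynein light chain (-0.50). Of 54 actin and nucleator genes tested, none passed, with a median of 0.003 that was -0.011 under median centring. Without overlap 12 of them were higher and 6 lower, which is 22.2% and 11.1%, beside 9.44% and 14.7% of all genes, and 4 passed, all higher, with a trend of the prior variance. Of 33 T cell receptor complex and proximal signalling genes, none passed either. Anxa1, a phospholipid-binding protein, rose from 1704 to 2159 (0.34) and Sytl2, a Rab27 effector of granule docking, from 367 to 461 (0.33). Membrane traffic genes that rose were Ehd1 (endosome recycling, 0.24), Snx13 (a sorting nexin, 0.25) and Washc2 (of the WASH complex, 0.24). Emp1 rose by 0.41, Filip1l by 0.40, Fam20a by 0.37 and Fam102b by 0.40. Ccne2 (cyclin E2) rose by 0.25 and Rpa3, of the single-strand DNA binding complex, fell by 0.30. They were the only calls among 57 replication genes (3.51%, against 1.05% of all genes). Rpa3 passed without Antagomir-31 replicate 4, and neither passed without any other array. Both were lost with no intensity filter, when the 72 h arrays were fitted alone and with the replicate number as a block.

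Among the passing genes in no list, several acted in RNA and chromatin. Rbm26, an RNA-binding protein gene, rose by 0.29, Polr3a, the large subunit of RNA polymerase III, by 0.25 and the histone chaperone gene Spty2d1 by 0.27. Tex10 (0.23) and Lrrfip1 (0.21) were among the brightest that rose, with Antagomir-31 means of 1411 and 2189. With the mean of their probe sets they were at 0.12 and 0.06 and did not pass. C1galt1, which builds core O-glycans, rose by 0.22, Phlda1 by 0.26 and Pxdc1 by 0.31. In the nucleotide metabolism list, Adk, adenosine kinase, rose from 905 to 1064 (0.23). These were small steps between groups that did not overlap.

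Lower genes in no list included enzymes of several compartments. Tgm2, transglutaminase 2, read 67.2, 71.9 and 68.9 with Antagomir-31 and 88.1, 93.4 and 90.7 with Antagomir-SCR, a difference of -0.39, with all 5 of its probe sets above the floor lower. Rnf19b, a ubiquitin ligase gene of cytotoxic cells, was among the brightest that fell and read 1456, 1376 and 1684 with Antagomir-31 and 1785, 1980.3 and 1840.3 with Antagomir-SCR, a difference of -0.32. Usp4, a deubiquitinase gene, fell by 0.26, and the mitochondrial genes Ppox (haem synthesis, -0.28) and Ivd (leucine breakdown, -0.24) fell as well. The zinc finger gene Zfp688 (-0.33), the predicted gene Gm31718 (-0.33), the amidase gene Wdyhv1 (-0.31), Kyat1 of kynurenine metabolism (-0.31), Pacs2 (-0.30) and Eml2 (-0.29) fell too. Ssna1, among the brightest that fell, was at -0.21. Ifi27l2a, an interferon-stimulated gene, fell by 0.32. It and Socs1 were the 2 of 30 interferon-stimulated genes that passed (6.67%, against 1.05% of all genes).

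Of 291 tested genes on the study's list of putative miR-31 targets, 2 rose and 1 fell (1.03%, beside 1.05% of all genes). The study drew the list from conserved predicted sites and the literature, not from these arrays, and its median was -0.003 against -0.009 for all genes. Without overlap of the arrays, 48 of them were higher and 33 lower, which is 16.5% and 11.3%, beside 9.44% and 14.7% of all genes. Ehd1 and Gad2 rose and Bach2 fell. Ehd1 read 1136, 1094 and 1034 with Antagomir-31 and 899, 939 and 926 with Antagomir-SCR. Its treatments did not overlap. Gad2, at 0.35, was dimmer, with means of 129 and 102. None of the 291 passed without any one of the 3 sensitive arrays, with no intensity filter or with the replicate number as a block. Gad2 alone passed without Antagomir-SCR replicate 2 and Bach2 alone without Antagomir-SCR replicate 4.

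Across the 67 gene lists written for these cells, the putative targets aside, 32 held a passing gene. They covered 1478 tested genes and 48 of the 115 that passed, and the other 67 passing genes were in none of these. Ribosomal proteins (42 tested), the Th1 identity genes (12) and the MHC class II genes (6) held none. The Th1 genes did separate as a sum, at intensities between 25220 and 25940 after Antagomir-31 and between 26540 and 26880 after the control, with Tbx21, the master factor of Th1, at 1730 to 1885 and Ifng at 8188 to 8718 over the 6 arrays. The cells thus carried the transcripts their label names, together with Cd3e at 608 to 707 and Cd4 at 240 to 322. Twist1, a factor of repeatedly stimulated Th1 cells, was at 151 to 179. Among markers of cells that could remain from the culture, the B cell genes Ms4a1 (17.6 to 25.6) and Cd79a (12.9 to 17.2) and the myeloid genes Itgam (9.8 to 11.8) and Itgax (15.5 to 18.3) lay under the floor of 27.9. Cd14, a monocyte gene, lay above it at 48.7 to 52.4. The 13 B cell markers, 7 of them under the floor, summed to values between 463.6 and 469.7 after Antagomir-31 and between 433.6 and 482.2 after the control. The 15 macrophage and monocyte markers, 10 under the floor, summed to 386.1 to 403.8 and 371.0 to 391.9. The 9 regulatory T cell markers separated, with sums of 3695 to 3866 after Antagomir-31 and of 3888 to 4036 after the control. Of 7 tested, 1 fell (14.3%, against 1.05% of all genes). The 8 natural killer cell markers overlapped slightly, at 2574 to 2732 and 2728 to 3072. Class II genes, carried by antigen-presenting cells, separated too, with sums of 1074 to 1187 after Antagomir-31 and of 1226 to 1288 after the control. None of the 6 tested passed, Cd74 was at -0.32 and H2-Ab1 at -0.25, and the part of such cells in the other results was not tested.

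Many genes are read by several probe sets, groups of short probes against one transcript, and these were compared as a check within the arrays. Tested as 21097 single probe sets, 93 passed (0.441%), 37 higher and 56 lower (0.175% and 0.265%). Of these, 83 carried 1 gene symbol and lay in 77 genes. In 50 genes both the gene and a probe set passed, in 27 a probe set alone, and in 65 the gene alone. A further 7 passing probe sets had no symbol in the annotation, with differences from -0.48 to 0.44. No gene had passing probe sets in both directions.

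Of the 27 genes seen through a probe set alone, 26 passed in one that was not the brightest of the gene, and 21 of those probe sets were lower and 5 higher. The genes named here were picked after their values were seen. Rasgrp1, which activates Ras below the T cell receptor, read 659, 677 and 643 with Antagomir-31 and 592, 578 and 616 with Antagomir-SCR in its brightest probe set, a difference of 0.15 that did not pass. A dimmer probe set read 48.6, 54.5 and 60.2 with Antagomir-31 and 77.5, 73.0 and 92.1 with Antagomir-SCR and fell by 0.57 (adjusted p 0.033, limma). The 2 probe sets thus had opposite signs. Socs3, an inhibitor of cytokine receptors, gave 0.01 and 0.02 in its brighter probe sets and -0.37 in the dimmest (adjusted p 0.025, limma), and Rsrc2 gave 0.01, -0.08 and 0.68, of which the last passed. In other genes all probe sets had one sign: Pdgfa, a growth factor chain, gave -0.30 and -0.49, and Vcan, the matrix proteoglycan versican, gave 0.24, 0.40 and 0.35. In Uqcrc2, a subunit of respiratory complex III, the brightest probe set passed at 0.28 and the other gave 0.04.

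Among the 115 passing genes, 53 had several probe sets above the floor. In 8 of them the gene value came from different probe sets on different arrays, so the second probe set is not a separate reading there. All probe sets of a gene had one sign in 37 of the 53 (69.8%, against 42.9% of all genes with several). The second brightest probe set had the sign of the gene in 45 of 53 (84.9%, against 56.0%), and in 37 of the 45 genes whose value was the brightest probe set on every array (82.2%). By direction, out of the 53, these were 23 of 25 lower and 22 of 28 higher genes, and the median of the second probe set was -0.24 for lower and 0.09 for higher genes. No test was run on the gap between these counts. Ncf1 gave -0.57, -0.73 and -0.67 in order of brightness. Scd2 gave -0.25, -0.69 and -0.39, so its dimmer probe sets moved further than the bright one. Rgs16 gave 0.47, 0.36 and 0.24. Lif gave -0.73 and -0.33, and Evl -0.66, -0.43 and -0.10.

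Other genes rested on one probe set. Ehd1 gave 0.24 in its brightest probe set and 0.01, -0.05 and -0.07 in the others, and Klf9 gave -0.25 beside 0.02, -0.02 and -0.05. In 5 of the 53 genes with several probe sets, another probe set had the opposite sign with an unadjusted limma p below 0.05. That is 9.43%, against 11.3% of all tested genes with several. All 5 were counted as higher, and none of those other probe sets passed after Benjamini-Hochberg adjustment. Kpnb1, the import receptor importin beta, gave 0.28 in its brightest probe set and -0.49 in its dimmest. Rad21, a cohesin subunit, gave 0.24, 0.36 and -0.32. The import receptor gene Ipo4 gave 0.27 and -0.12, Tmed7, a cargo receptor, 0.20 and -0.36 among its 4, and Zfp827 0.29 and -0.19. When probe sets were summarised differently, Kpnb1, Tmed7 and Zfp827 turned to the lower side, so the direction of these 3, counted as higher above, depends on that choice.

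The 27 genes whose value shrank by more than 1.5 times or changed sign did so when the probe sets were chosen or averaged in another way. With the mean of the probe sets above the floor, Ehd1 was at 0.03, Ipo4 at 0.07, C1galt1 at 0.07, Rad21 at 0.09, Polr3a at 0.11 and Rbm26 at 0.12. On the same average Washc2 was at 0.13, Kdm5b at 0.14, Spty2d1 at 0.15, Ptpn12 at 0.19, Fam102b at 0.21 and Afp at 0.21. None of these 12 passed there. Adk was at 0.12 without cross-hybridizing probe sets. Among lower genes, the mean of the probe sets put Evl at -0.40, where it still passed, and Nfix at -0.18, Pacs2 at -0.12 and Klf9 at -0.07, where they did not. With the highest-mean probe set, Mgll was at -0.22 and Arrb2 at -0.07, and neither passed. Scd2 was the 1 gene whose value grew by more than 1.5 times, to -0.44 with the mean of its probe sets.

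**Figure D4:**
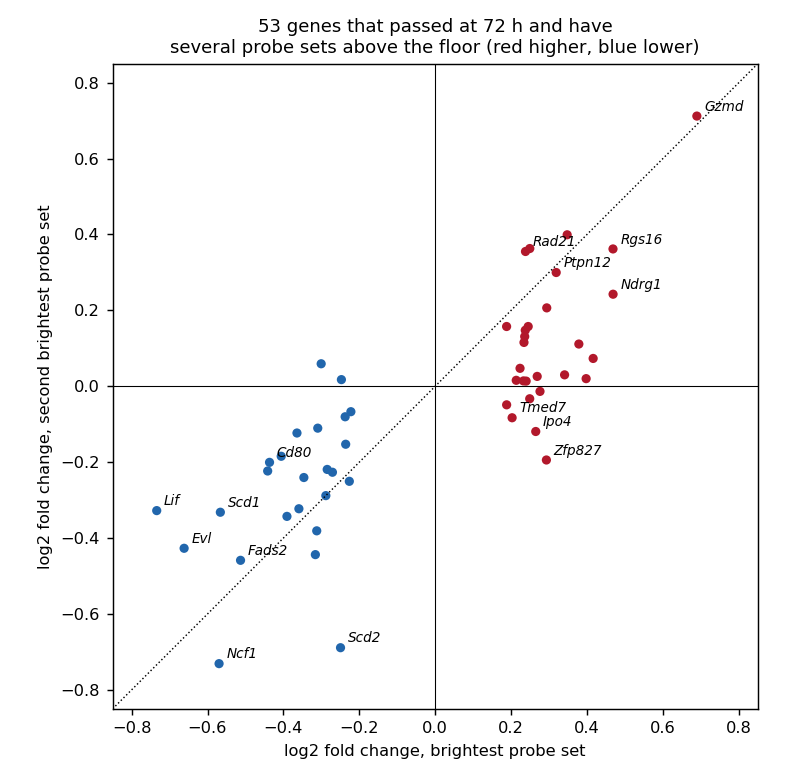
Log2 fold change at 72 h of the second brightest probe set (vertical axis) against the brightest (horizontal axis) for the 53 passing genes with several probe sets above the intensity floor; red genes rose, blue genes fell, and the dotted line marks equal values. Of the 53, 45 lie in the quadrants of equal sign, with Gzmd on the line and Ncf1 and Scd2 beyond it, while Tmed7, Ipo4 and Zfp827 lie below 0 on the vertical axis.

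The effect was set beside the earlier times, where the same contrast was read from other arrays, 2 per treatment. Those arrays were dimmer in the deposited values, with median intensities of 21.76 to 23.79, against 27.92 to 28.42 at 72 h. Time cannot be told apart from this shift, and its part in the comparison between times was not tested. No gene passed at 36 h or 48 h, and 588 genes (5.39%) at 36 h and 654 (5.99%) at 48 h had an unadjusted limma p below 0.05, beside 1912 (17.5%) at 72 h, of which 761 were higher (6.97%) and 1151 lower (10.5%). Of the 50 genes that rose at 72 h, 27 were higher at 36 h (54.0%, against 50.3% of all genes) and 31 at 48 h (62.0%, against 45.4%). Of the 65 that fell, 27 were lower at 36 h (41.5%, against 49.4%) and 23 at 48 h (35.4%, against 54.3%). The median difference of the higher genes was 0.01 at both earlier times and 0.29 at 72 h, and that of the lower genes was 0.03, 0.02 and -0.31. A test of the difference between times, fitted over all genes, passed for 2 genes against 36 h (0.0183%) and 4 against 48 h (0.0366%), and both comparisons use the same arrays at 72 h. Gzmg was at -0.05 at 36 h, -0.20 at 48 h and 1.38 at 72 h. Lif was at 0.09, 0.04 and -0.73. Both differed from each earlier time (limma, adjusted p 0.0403 for Gzmg against 36 h and 0.0135 against 48 h, and 0.0137 and 0.0135 for Lif). Ncf1 (0.15 at 48 h) and Egr1 (-0.26) differed from 48 h (adjusted p 0.0308 and 0.0345, limma). With single arrays left out, the count against 36 h was 1, 0 and 6 for Antagomir-31 replicates 2, 3 and 4 and 1, 0 and 4 for Antagomir-SCR replicates 2, 3 and 4. Against 48 h, in the same order, it was 1, 3 and 6 and then 2, 3 and 8.

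**Figure D5:**
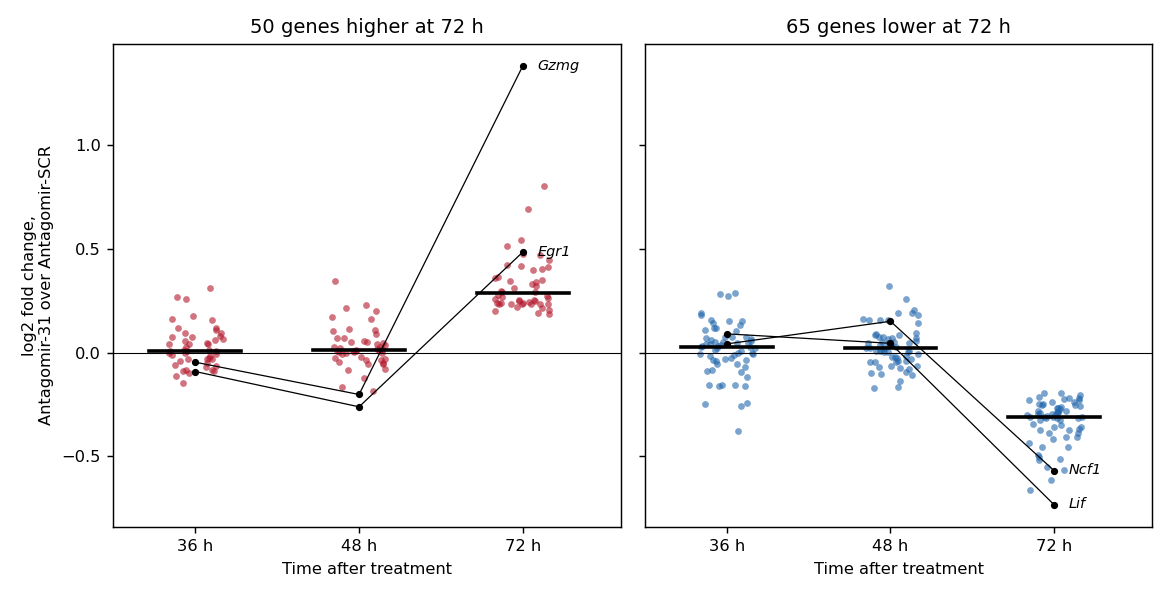
Log2 fold change (vertical axis) at 36 h, 48 h and 72 h of the 50 genes that rose at 72 h (left) and the 65 that fell (right), 1 point per gene with black bars at the medians; lines follow Gzmg, Egr1, Ncf1 and Lif. At 36 h and 48 h the medians are between 0.01 and 0.03. From 48 h to 72 h, Gzmg goes from -0.20 to 1.38 and Egr1 from -0.26 to 0.48. Over the same step, Ncf1 goes from 0.15 to -0.57 and Lif from 0.04 to -0.73.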

How the data were processed

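RNA from Th1 rep cells was hybridized to Affymetrix Mouse 430_2 arrays. The authors background-corrected, normalized and summarised the probe signals with RMA (GCOS and the affy package, versions not given in the sources used here) and deposited 1 linear intensity per probe set and array; log2 was taken here. RMA's normalization assumes that arrays share one overall distribution. Arrays have no read depth; their number and the brightness of a gene limit the precision (median standard error 0.0572 for a gene).

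Of 45101 probe sets, 64 were controls, 34945 carried 1 gene symbol in the platform annotation, 932 several and 9160 none; genes were named from probe sets with 1 symbol (18193 genes). A gene took its highest probe set on each array. The brightest 60% of genes by mean log2 intensity over all arrays (floor 27.9) entered a linear model in limma 3.58.1 (R 4.3.3), as 6 groups over 14 arrays with an empirical Bayes prior, Benjamini-Hochberg adjusted, at a threshold of 0.05. The same fit gave the differences between times and, on 21097 probe sets above the same floor, the probe set results. The text names genes from among the 30 largest passing changes in each direction, the 10 brightest passing genes in each direction and passing members of the lists. It also names from the 4 members with the smallest p of each described list. Further passing genes, such as Wdyhv1, Kyat1 and Polr3a, met none of these rules and were picked after their values were seen. Others are marked where they appear. The members and lists were chosen with earlier results of these data known. On simulated data with 10916 genes, this fit recovered 26.5% of changes of 0.2 on the log2 scale, 78.8% of 0.4 and 100% of 0.8, with 7 false calls. The simulated noise was drawn independently for each gene and array, with nothing shared by the genes of an array. These figures therefore give no error rate for the real arrays. Sequences came from RefSeq tables through Python 3.11.15. Alternatives changed the filter, the probe set summary, cross-hybridizing probe sets, scaling, prior, arrays fitted and replicate block, or left out each array at 72 h in turn.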

Additional observations from a re-analysis of the deposited data

Results flagged for a closer look

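In 4 genes the response to Antagomir-31 at 72 h was unlike that at an earlier time, by a limma test of the difference between times over all genes with Benjamini-Hochberg adjustment. The comparisons with 36 h and with 48 h share the arrays at 72 h. For Lif, the log2 effect at 72 h minus that at 36 h was -0.82 ± 0.096 (SE, adjusted p 0.0137), and minus that at 48 h it was -0.78 (adjusted p 0.0135). Gzmg moved the other way, by 1.43 ± 0.20 relative to 36 h (adjusted p 0.0403). Relative to 48 h its value was 1.58 (adjusted p 0.0135). For Ncf1 it was -0.72 ± 0.10 against 48 h (adjusted p 0.0308), and for Egr1 0.75 ± 0.11 (adjusted p 0.0345). Each earlier time had 2 arrays per treatment, with lower median intensities (21.76 to 23.79, against 27.92 to 28.42 at 72 h). The time of reading cannot be told apart from this shift between arrays.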

How the results depend on the processing

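The main analysis called 115 genes and 93 probe sets at 72 h. With no filter 16 genes and 14 probe sets passed, with a mean log2 intensity of at least 6, 286 and 439, with a trend of the prior variance, 424 and 600, and with only the arrays at 72 h, 25 and 5. The other settings gave 120 genes (probe set with the highest mean), 86 (mean of the probe sets above the floor), 101 and 85 probe sets (without cross-hybridizing probe sets), 149 and 99 (median centring, 27 of the probe sets higher and 72 lower) and 119 and 104 (quantile normalization, 56 higher and 48 lower). Leaving out 1 array gave 11 to 98 genes and 3 to 468 probe sets, the latter 468 without Antagomir-31 replicate 4. Genes whose effect differed from 36 h numbered 2, and 0 with no filter, 21 at a log2 of at least 6, 0 with the mean of probe sets, 44 with the trend and 0 to 6 with 1 array left out. Against 48 h there were 4, and 2, 16, 1, 26 and 1 to 8 under the same settings. The labels do not say whether replicate numbers pair the samples. At 72 h, deviations of same-numbered arrays correlated at 0.019, -0.0699 and 0.056, and those of differently numbered arrays at -0.0725 to 0.0528. With 3 arrays per treatment these values cannot settle whether the samples are paired. The fit with the replicate number as a block called 22 genes, 15 probe sets, 1 gene against 36 h and 1 against 48 h. Among 161 named genes, 5 changed sign in an alternative: Kpnb1 (-0.0599 with the mean of probe sets and -0.0135 without cross-hybridizing ones), Tmed7 (-0.0281 and -0.083), Zfp827 (-0.19 with the highest-mean probe set), Lasp1 (-0.0928 without cross-hybridizing ones) and Sla (-0.008 with the mean). Over 2559 values of these genes, 1603 kept direction and side of the threshold, 889 fell below it and 60 rose above it. The causes were not tested, apart from fewer arrays or another set of tested genes where the setting itself names them.

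Of the 115 genes, 9 passed in every alternative that tested them (Ccl3, Cd81, Gzmc, Gzmd, Gzme, Gzmg, Lif, Ncf1 and Rgs16), 15 in at least 12 of the 16 and 58 in at least 8.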
